A study of Mus musculus with 8 samples.

Results

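The growth arrest gene Gas6, its relative Pros1, and 8 receptor tyrosine kinases were followed in sorted mouse mammary tumour cells: the TAM receptors Axl, Tyro3 and Mertk, the hepatocyte growth factor receptor Met, the fibroblast growth factor receptors Fgfr1 and Fgfr2, the insulin-like growth factor receptor Igf1r, and the stem cell factor receptor Kit. The 10 genes are a fixed list of names, and the list was drawn up with earlier results of these data known. All 10 had probes on the array, 19 probes in total, and 9 genes were measured well enough to be tested among 20265 genes. Mertk was not.

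The tumours came from bitransgenic mice that carried both the sSHIP reporter, in which an internal promoter of Inpp5d drives GFP, and the C(3)1 Tag transgene, in which a hormone-responsive promoter drives the SV40 large T antigen in mammary epithelium. All 8 samples therefore shared both transgenes, and no tumour without them and no normal gland was compared. Each tumour was dissociated with enzymes and sorted by flow cytometry into Lin-CD49f+GFP+ cells and Lin-CD49f+GFP- cells, which are called GFP-positive and GFP-negative below. No sample was treated, and age and strain background are not given in the sources used here. The titles number the samples 566, 567, 573 and 631 in each population, so that 8 arrays form 4 pairs, and each number is read here as 1 tumour. Whether the numbers were separate animals is not stated, so the p-values cover the spread between these samples, which could be technical. The design asks which genes differ between cells with and without reporter activity, and the numbering also allows levels to be compared across tumours.

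GAS6 and protein S, the product of Pros1, are vitamin K-dependent proteins that bridge phosphatidylserine on dying cells to the TAM receptors. GAS6 binds AXL, TYRO3 and MERTK, and protein S binds TYRO3 and MERTK. AXL is known from mesenchymal and drug-resistant carcinoma cells, MET drives epithelial growth, branching and motility after binding HGF, and KIT in the mammary gland marks luminal progenitors. In a bulk sample, fewer cells of a type and less RNA per cell cannot be told apart.

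Levels are log2 processed intensities minus the array's 75th percentile, so that 0 is that percentile, and they are compared between arrays for a gene, not between genes. On 7 arrays 53.5% to 58.5% of gene spots were well above background, against 34.1% for GFP-positive cells of tumour 573. The lowest intensity called well above background there was 142, against 13.4 to 23.5 on the others, so dim genes are poorly measured on that array. The 4 GFP-positive arrays shared 1 column of the slide and the 4 GFP-negative ones the other, so an effect of the column cannot be told apart from the population. Of the 9 measured genes, 8 were well above background on all 8 arrays. The exception was Fgfr2, which missed on the GFP-positive array of tumour 573.

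The largest spread between tumours was that of Gas6, Kit and Axl, and their promoters are shown because Gas6 and Kit moved together over the arrays while Axl ran the other way. Each line holds the 250 bases before the annotated start in RefSeq assembly GRCm38.p6, read 5′ to 3′ on the strand of the gene, with every GC box (GGGCGG or its complement CCGCCC) in capitals. They lie at chr8:13494536-13494785 on the minus strand for Gas6, chr5:75574737-75574986 on the plus strand for Kit and chr7:25788734-25788983 on the minus strand for Axl.
Gas6: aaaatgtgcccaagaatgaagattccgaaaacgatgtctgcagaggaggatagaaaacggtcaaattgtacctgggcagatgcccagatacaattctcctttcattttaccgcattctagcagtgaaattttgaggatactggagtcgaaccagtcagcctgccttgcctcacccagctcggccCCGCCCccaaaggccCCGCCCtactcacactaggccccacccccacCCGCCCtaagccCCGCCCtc
Kit: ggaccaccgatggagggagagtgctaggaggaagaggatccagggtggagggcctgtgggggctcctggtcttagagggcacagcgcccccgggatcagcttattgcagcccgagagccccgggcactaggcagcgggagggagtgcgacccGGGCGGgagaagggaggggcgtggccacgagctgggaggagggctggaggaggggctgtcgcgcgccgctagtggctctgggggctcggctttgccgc
Axl: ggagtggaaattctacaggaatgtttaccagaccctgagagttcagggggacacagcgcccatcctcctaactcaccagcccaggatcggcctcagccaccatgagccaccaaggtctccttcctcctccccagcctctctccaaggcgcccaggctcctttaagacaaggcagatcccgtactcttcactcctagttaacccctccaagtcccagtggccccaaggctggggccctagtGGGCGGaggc
The Gas6 window held 4 GC boxes, starting 66, 51, 20 and 8 bases before the start, whereas Kit had 1, at 98 bases, and Axl had 1, at 10 bases. Several other members also held GC boxes: Pros1 had 5, Mertk, Tyro3 and Met 3 each, Igf1r 2 and Fgfr2 0. Among 32851 promoter windows of the same length, 32.7% held a GC box and 4.09% held 4 or more. The GC content was 54.8% for Gas6, 70.8% for Kit and 60.0% for Axl, against a median of 52.4%. CpG dinucleotides numbered 10, 17 and 5, against a median of 6. None of the 3 windows held the AP-1 letters TGANTCA (6.75% of all windows), CCAAT or its complement ATTGG (33.8%), or TATAAA or TTTATA (12.4%). The E-box letters CANNTG (66.2% of windows) occurred in the Gas6 window, 174 bases before the start. Each motif was searched on both strands, its matches were not required to be separate from those of another, and a match is a description of letters and not of a binding site. Of the 10 genes, 9 had a window in the table.

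No member passed the test between the populations. The count was 0 of 9, against 0% of all genes at an adjusted p under 0.05 in limma, and at an unadjusted p under 0.05 it was again 0 of 9, against 0.794% of all genes. No member had populations that did not overlap, against 0.834% of all genes. On average 3 members, Gas6, Pros1 and Kit, had higher values in GFP-positive cells and 6 had lower values. The median difference was -0.27 on the log2 scale, against -0.06 over all genes. That median is the value of Fgfr2, a dim gene that passed the filter only through the GFP-negative arrays. Among genes detected on all arrays, which leaves Fgfr2 out, the members' median was -0.25 against -0.04. Without GFP-positive 566 the members' median was -0.03 against -0.07 over all genes, without GFP-positive 573 it was -0.12, and without GFP-positive 631 it was -0.40. Among all genes 36.5% had higher averages in GFP-positive cells, a share that depended on the scaling and the filter: it was 26.2% with median scaling, 27.4% with a percentile over averaged gene probes, 52.3% when the percentile was taken over probes detected on every array, 50.8% with a common floor, 47.8% with genes detected on at least 1 array and 64.8% with no filter. The direction was shared by all 4 tumours for 3 of 9 members, against 14.2% of all genes. Gas6 had a higher value in GFP-positive cells each time, against 3.39% of all genes, and Met and Igf1r had lower ones, against 10.8%. The count depended on the scaling. It was 5 of 9, with Axl and Fgfr1 added, with normexp (14.0% of all genes) and with the percentile over averaged probes (17.2%). With median scaling it was 3 of 9, namely Axl, Met and Fgfr1 (8.45%), and with quantile scaling 4 of 9, with Fgfr2 added (15.0%). With the tumour as a block, which the paired numbers allow, Met (unadjusted p = 0.0220) and Axl (0.0391) fell below an unadjusted p of 0.05 in limma, against 5.49% of all genes, and the adjusted count stayed at 0 of 9 and 0 of 20265. When tumour was instead a random block they did not (unadjusted p = 0.0701 and 0.273 in limma), and 0 of 9 members did, against 4.96% of all genes. The SEs given below, for members and pathway genes, come from the fit without a block. With the tumour as a fixed block they were 0.62 for Gas6, 0.26 for Pros1, 0.16 for Axl and 0.17 for Tyro3. For Met the SE was then 0.13, for Fgfr1 0.17, for Fgfr2 0.15, for Igf1r 0.15 and for Kit 0.68.

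**Figure D1:**
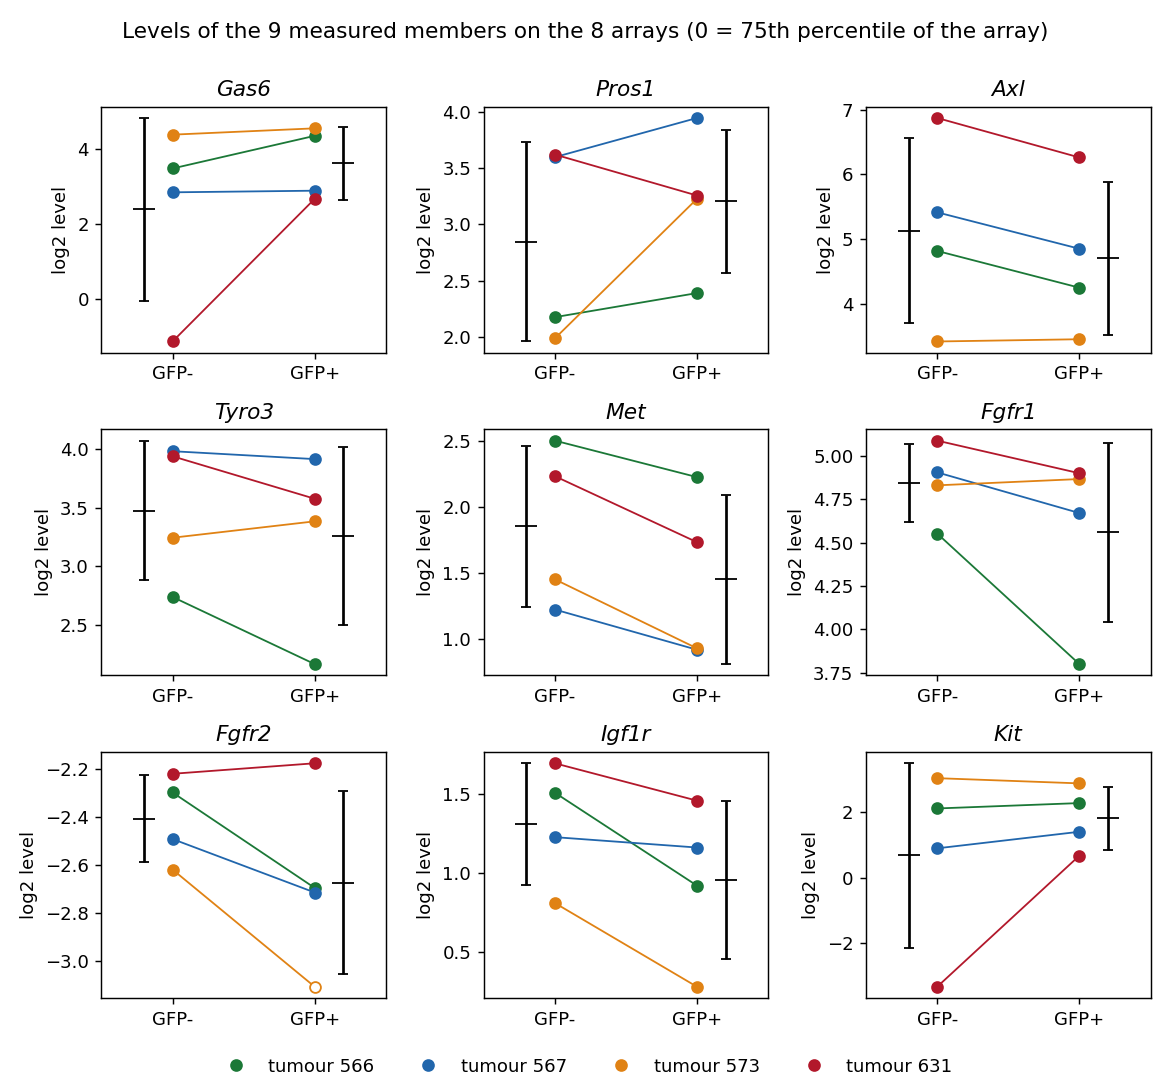
Log2 levels of the 9 measured genes in GFP-negative and GFP-positive cells, with lines joining the 2 arrays of a tumour, open symbols for values not well above background and black bars for mean and SD (n = 4). In tumour 631 the lines of Gas6 and Kit climb steeply from GFP-negative to GFP-positive cells, while for Axl the 4 tumours keep apart in both populations.

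Gas6, the ligand of all 3 TAM receptors, had a level above the array's 75th percentile in every sample except the GFP-negative cells of tumour 631. Its level in GFP-positive cells was 4.37, 2.90, 4.57 and 2.68 in tumours 566, 567, 573 and 631. In GFP-negative cells it was 3.49, 2.85, 4.40 and -1.14. The populations overlapped, and the last value lay far below the other 7 while still well above that array's background, whose lowest such level was -4.65. The means were 3.63 ± 0.98 (SD, n = 4) and 2.40 ± 2.44 (SD, n = 4), a difference of 1.23 (SE 1.10; limma adjusted p = 0.9999). Within tumours the differences were 0.87, 0.04, 0.17 and 3.82, the last a 14.1-fold difference. Without the GFP-negative array of 631 the mean difference was 0.05. With median scaling 3 of the 4 tumours kept a positive sign.

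Pros1, which encodes the anticoagulant protein S, varied between tumours and showed no shared direction. In GFP-positive cells its level was 2.39, 3.94, 3.23 and 3.26 in the same order of tumours, and in GFP-negative cells it was 2.18, 3.60, 1.99 and 3.62. The populations overlapped, and tumour 566 was the lowest of the GFP-positive arrays. The mean difference was 0.36 (SE 0.48; limma adjusted p = 0.9999). GFP-positive cells had higher values in tumours 566, 567 and 573, by 0.21, 0.35 and 1.24, and a lower one in 631, by -0.36. A second Pros1 probe gave 0.55, 0.51, 0.53 and -0.08, so the 1.24 of tumour 573 was not repeated by it.

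Axl was the receptor with the clearest order of tumours. Its level in GFP-positive cells was 4.25, 4.85, 3.45 and 6.26 in tumours 566, 567, 573 and 631. In GFP-negative cells it was 4.82, 5.41, 3.42 and 6.87. Tumour 631 was the highest and 573 the lowest in both populations, and the populations overlapped throughout. The difference was -0.43 (SE 0.79; limma adjusted p = 0.9999), with -0.57, -0.56, 0.03 and -0.61 within tumours. Without the GFP-negative array of 631 the unpaired difference turned to 0.15, and it was -0.01 when the GFP-positive array of 573 was left out. A second Axl probe gave the same order of tumours and differences of -0.19, -0.38, -0.79 and -0.26, although its GFP-positive value of 573, behind the -0.79, missed the background criterion.

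Tyro3, the TAM receptor best known from the nervous system, was lowest in tumour 566. It stood at 2.17, 3.91, 3.38 and 3.58 in GFP-positive cells and at 2.74, 3.98, 3.24 and 3.94 in GFP-negative cells. These gave a difference of -0.22 (SE 0.43; limma adjusted p = 0.9999), with -0.57, -0.07, 0.14 and -0.36 within tumours. Without the GFP-positive array of 566 it turned to 0.15. Mertk, the TAM receptor of phagocytes, was well above background on 1 array of 8, that of GFP-negative cells of tumour 567, at a level of -4.21. The other 7 arrays gave -7.15 to -3.28 without passing that criterion, so no comparison was made. Of 9 macrophage markers 5 were measured, and their summed level was 2.39 to 3.34 in GFP-positive cells and 3.00 to 3.55 in GFP-negative cells. Such sums add linear intensities, so the brightest gene, here Csf1r, weighs most. All 5 had lower averages in GFP-positive cells, against 63.5% of all genes. Of them C1qa, C1qb and Aif1 passed the filter only through the GFP-negative arrays.

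Met had a lower value in GFP-positive cells of each tumour, by a small amount. Its level was 2.22, 0.92, 0.93 and 1.73 in GFP-positive cells and 2.5, 1.22, 1.45 and 2.23 in GFP-negative cells. The populations overlapped because tumours 566 and 631 lay above 567 and 573 in both. The differences within tumours were -0.28, -0.30, -0.52 and -0.50, and all 4 kept a negative sign under the 7 alternatives of scaling, background, floor and probe rule for which signs were counted. The mean difference of -0.40 (SE 0.40; limma adjusted p = 0.9999) was about the size of its error when the spread between tumours was included. A second Met probe gave -0.01, -0.27, -1.17 and -0.19, and its GFP-positive value of 573, behind the -1.17, was not above the background criterion.

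Fgfr1, the FGF receptor most common in mesenchymal cells, was at similar levels in all samples. It ranged from 3.80 to 4.90 in GFP-positive cells and from 4.55 to 5.09 in GFP-negative cells, with the lowest value in GFP-positive cells of tumour 566. The difference was -0.28 (SE 0.28, limma adjusted p = 0.9999), with -0.75, -0.23, 0.04 and -0.19 within tumours. The other Fgfr1 probes, well above background on all arrays, gave smaller mean differences of -0.06, -0.13 and -0.075. In tumour 631 they differed by 0.19, -0.15 and 0.08. Fgfr2, which in the mammary gland is an epithelial receptor, was dim. It stood at -2.70, -2.72, -3.11 and -2.18 in GFP-positive cells, the third of these not well above background, and at -2.30, -2.49, -2.62 and -2.22 in GFP-negative cells. These gave a difference of -0.27 (SE 0.24; limma adjusted p = 0.9999), and with a common floor set by the dimmest array all its values lay at the floor.

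Igf1r, the receptor of both insulin-like growth factors, had lower values in GFP-positive cells of each tumour, 0.92, 1.16, 0.28 and 1.46 against 1.51, 1.23, 0.81 and 1.70. The populations overlapped. The differences were -0.59, -0.07, -0.53 and -0.24, with a mean of -0.36 (SE 0.31; limma adjusted p = 0.9999). A second Igf1r probe gave -0.58, -0.10, -0.10 and 0.06, and with median scaling 3 of the 4 tumours kept the negative sign.

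Kit, the receptor of stem cell factor, gave a pattern like that of Gas6. Its level in GFP-positive cells was 2.27, 1.40, 2.87 and 0.67 in tumours 566, 567, 573 and 631, and in GFP-negative cells it was 2.10, 0.89, 3.02 and -3.32. The last value stood far below the others, again well above that array's background, and the remaining 7 overlapped. The means were 1.80 ± 0.97 (SD, n = 4) and 0.68 ± 2.80 (SD, n = 4), a difference of 1.12 (SE 1.24; limma adjusted p = 0.9999). Within tumours the differences were 0.16, 0.50, -0.16 and 3.99, the last 15.9-fold. The size of the largest depended on how dim values were treated: it was 2.88 with normexp and 1.95 with a common floor. The mean difference was then 0.79 and 0.61. Without the GFP-negative array of 631 the mean difference turned to -0.21.

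**Figure D2:**
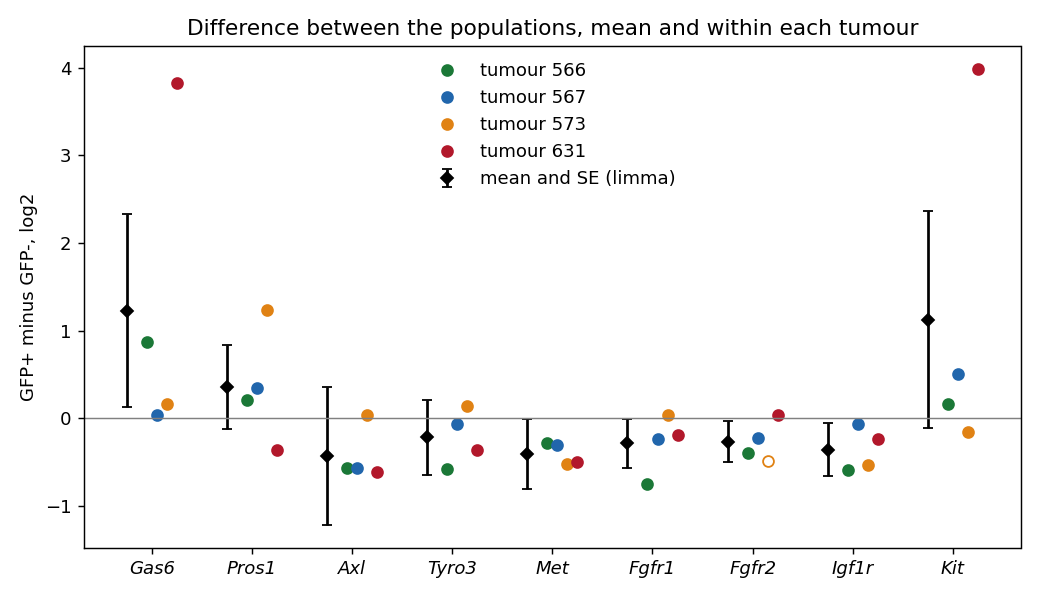
Log2 difference of GFP-positive from GFP-negative cells, with the mean and its SE from limma (black) and the difference within each tumour (coloured, open where an array was not well above background). Differences of Gas6 and Kit reach 3.82 and 3.99 in tumour 631 and stay below 1 in the other 3, while the 4 points of Met lie between -0.52 and -0.28.

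The tumour 631 pair held a wide difference in many genes, most luminal markers and some basal and fibroblast markers among them, not in these members alone. A difference above 1 in that pair was found for 4.96% of all genes, and GFP-negative cells of 631 held the lowest of the 8 values for 15.2%. Of 10 luminal epithelial markers 8 had a pair difference above 3, among them Krt7 at 4.41, the adhesion gene Epcam at 4.0, E-cadherin (Cdh1) at 3.88, the alveolar transcription factor Elf5 at 3.65 and Krt19 at 3.61. In contrast the keratins of simple epithelia, Krt8 and Krt18, differed by -0.29 and -0.11 in the same pair. Of 9 basal markers 3 had a difference above 3, namely Krt5 at 3.99, Krt14 at 4.26 and the laminin gene Lama3 at 4.36. The basal transcription factor Trp63 differed by -0.04. The 7 measured fibroblast markers differed by 0.21 to 4.49 in that pair, with a median of 1.93 and Mfap5 highest. Endothelial markers differed by -1.25 to 1.83 and pericyte markers by -2.13 to 1. Summed over the luminal list, the level was 8.25 to 9.16 in GFP-positive and 8.32 to 8.81 in GFP-negative cells. This sum is set mostly by Krt18 and Krt8. In GFP-negative cells of 631 it was 8.38, with Krt18 at 7.91 and Krt8 at 6.52, and it does not show the low values of the other markers there. Over the basal list the sum was 6.58 to 7.98 and 5.76 to 7.68. The part of the cells behind these markers in the Gas6 and Kit differences was not tested.

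Markers of other cells that express Kit or Axl were also read. Mast cells carry KIT, and of 6 mast cell markers on the array 2 were measured, with a summed level of -2.43 to -0.40 in GFP-positive and -2.03 to -1.59 in GFP-negative cells. The mast cell genes Cpa3, Mcpt4 and Fcer1a were not measured, and Ms4a2 was well above background on 0 arrays. The pan-leukocyte gene Ptprc was well above background on 0 arrays. Fibroblasts carry AXL. Of 8 fibroblast markers 7 were measured, with a summed level of 7.76, 6.87, 3.84 and 6.98 in GFP-positive cells of tumours 566, 567, 573 and 631 and of 5.59, 7.04, 3.77 and 5.89 in GFP-negative cells. Tumour 573 was the lowest in both populations, as it was for Axl, but 631 was not the highest in either. All 8 pericyte markers had lower averages in GFP-positive cells, against 63.5% of all genes, with summed levels of 3.21 to 4.29 against 4.47 to 4.95. All of them except Notch3 passed the filter only through the GFP-negative arrays. That filter favours genes with higher values there, so the count is not independent of it. The 3.21 is that of tumour 573, where 1 of the 8 was well above background. In the same sample 5 of the 7 fibroblast markers were. The part of these cells in the Axl and Kit values was not tested.

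**Figure D3:**
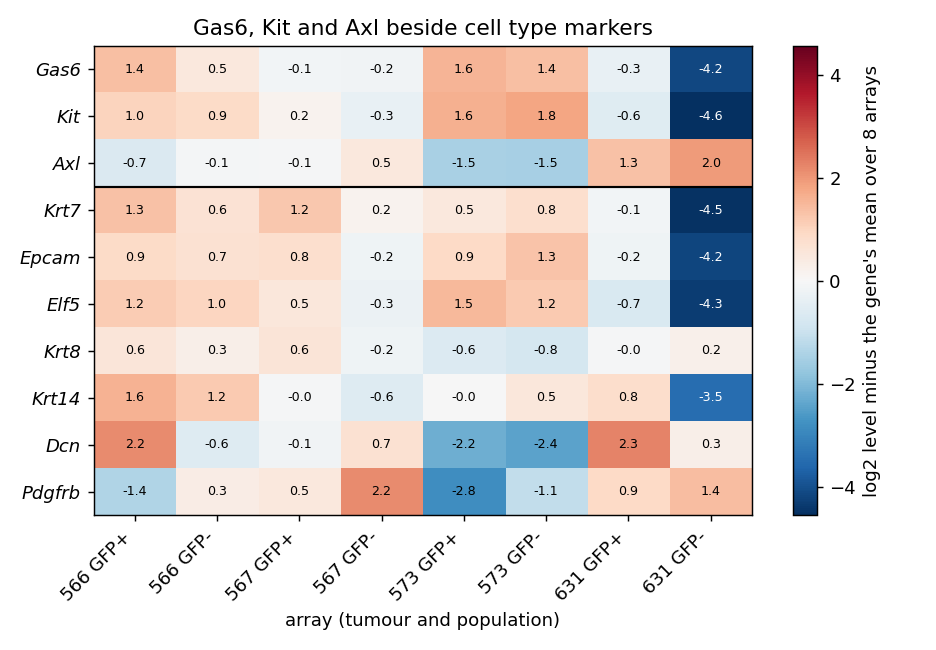
Log2 level of each gene minus its mean over the 8 arrays, for Gas6, Kit and Axl (above the line) and selected markers of luminal (Krt7, Epcam, Elf5, Krt8), basal (Krt14), fibroblast (Dcn) and mural cells (Pdgfrb). The GFP-negative array of tumour 631 is low for Gas6, Kit, Krt7, Epcam, Elf5 and Krt14 and high for Axl.

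Between tumours, Axl, Tyro3 and Met passed the limma F test, 3 of 9 members or 33.3%, against 28.8% of all genes, a share near the background. Each tumour had 1 array per population and no repeat sample, so no tumour level is replicated within a population. The tumour means of Axl were 4.53, 5.13, 3.44 and 6.57 for 566, 567, 573 and 631, an 8.77-fold range (3.13 on the log2 scale; limma F test adjusted p = 0.00647), and tumour accounted for 95.3% of its sum of squares against a median of 76.8% over all genes. A second Axl probe spanned 3.15. Tyro3 had means of 2.45, 3.95, 3.31 and 3.76, a 2.82-fold range (adjusted p = 0.0201 in the limma F test), with 566 apart from the rest. Met had means of 2.36, 1.07, 1.19 and 1.98, a 2.45-fold range (adjusted p = 0.0136 in the limma F test), with 566 and 631 above 567 and 573. The Axl call was kept when any of the 8 arrays was left out, and was lost when no filter on dim genes was used (adjusted p = 0.182 in limma). The Met call was lost without either array of 567 (adjusted p = 0.0626 and 0.0714 in limma), among genes detected on at least 1 array (0.0563) and with no filter (0.218). The Tyro3 call was lost without either array of 566 (0.0744 and 0.0503) or of 567 (0.0806 and 0.0769), with quantile scaling (0.0604), with a common floor (0.0780), among genes detected on at least 1 array (0.0733) and with no filter (0.241).

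The widest ranges belonged to Kit and Gas6, and whether they passed depended on the setting. Kit means were 2.19, 1.14, 2.95 and -1.32, a 19.3-fold range (4.27; limma F test adjusted p = 0.0551), and Gas6 means were 3.93, 2.87, 4.48 and 0.77, a 13.1-fold range (3.71; limma F test adjusted p = 0.0623). Neither passed in this fit, and in both the low mean of 631 came largely from its GFP-negative array. Without that array the ranges were 2.36 for Kit and 1.98 for Gas6, and both passed (limma F test adjusted p = 0.0263 and 0.0374). Without GFP-positive 631 both passed as well (0.00443 and 0.00526). Of the 9 members 3 had a range above 3, against 3.61% of all genes. Igf1r spanned 1.03 (adjusted p = 0.0502 in the limma F test), Pros1 1.49 (0.0599), Fgfr1 0.82 (0.112) and Fgfr2 0.66 (0.160), against a median range of 0.82 over all genes. Kit and Gas6 also passed the limma F test with median scaling (adjusted p = 3.54e-06 and 1.84e-05), with normexp (0.0209 and 0.0352) and among genes detected on all arrays (0.0398 and 0.0455). Under the other scalings, filters and probe rules tried they did not, with adjusted p from 0.0551 to 0.344.

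The order of tumours was 573, 566, 567, 631 from high to low for both Gas6 and Kit, and the reverse for Axl. The lowest tumour mean fell in 631 for 23.7% of all genes and in 573 for 25%. Over the 8 arrays, which share 4 tumours and are not independent, Gas6 and Kit correlated at r = 0.99 (rho = 0.98), and at 0.93 without tumour 631. Axl and Kit correlated at r = -0.89 (rho = -1), and at -0.95 without 631. Axl and Gas6 correlated at r = -0.87 (rho = -0.98), and at -0.91 without 631. Ligand and receptor of this pair were thus high in different tumours. Among the remaining receptors Axl ran with Igf1r (r = 0.87), Igf1r with Fgfr2 (r = 0.94), and Pros1 with Tyro3 (r = 0.80). Tyro3 and Fgfr1 correlated at 0.85 with all arrays and at 0.17 without tumour 566. These values are descriptions of 8 arrays and carry no p.

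**Figure D4:**
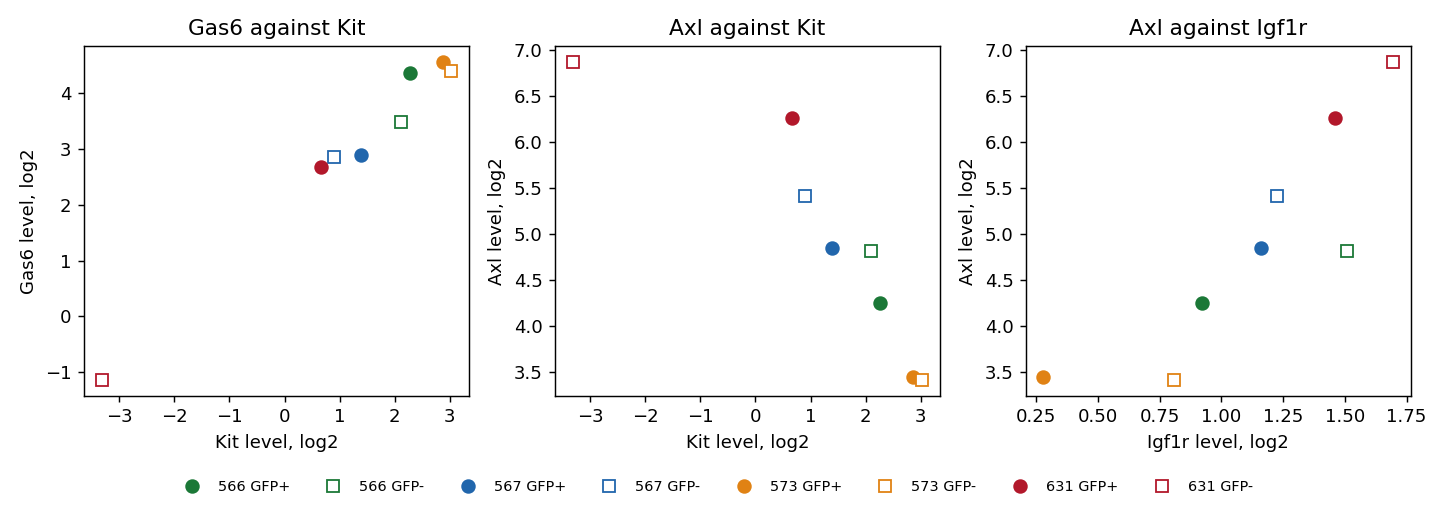
Log2 levels of Gas6 against Kit, Axl against Kit and Axl against Igf1r on the 8 arrays, coloured by tumour, with filled symbols for GFP-positive and open ones for GFP-negative cells. Gas6 climbs with Kit (r = 0.99), Axl runs against Kit (r = -0.89) and climbs with Igf1r (r = 0.87), and the GFP-negative array of 631 lies at one end in the first 2 panels.

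Many genes outside the list also ran closely with a member over the 8 arrays. Among 9485 genes with a symbol that were well above background on all 8 arrays, Kit ranked 2 in likeness to Gas6, and 406 when tumour 631 was left out. In the other direction Gas6 ranked 16 for Kit, and 374 without 631. The genes most like Gas6 were Cryl1 (r = 0.992), Kit and Cmtm8 (0.99). Those most like Kit were the nuclear pore gene Nup210 (0.997), Lgalsl (0.994) and Cmtm8 (0.994). Those most like Axl were Kansl2 (0.993), the mechanically gated channel gene Piezo1 (0.993) and the Ras GTPase-activating gene Rasa3 (0.992). For Tyro3 they were Hnrnpa0 (0.989), the importin gene Kpna6 (0.989) and Man1a2 (0.987), and for Met Cd2bp2 (0.964), Alas1 of heme synthesis (0.963) and Tmem41b (0.961). For Pros1 they were Smim3 (0.996), Gsto1 (0.969) and Tyw1 (0.962), for Fgfr1 Rprd2 (0.969), Rfc1 (0.951) and Chchd5 (0.951), and for Igf1r Ccdc9 (0.978), Ptpn23 (0.974) and Dnajc14 (0.972). These likenesses were taken over the 8 arrays and have no p.

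Beyond the members, 88 genes of the same pathways were read, of which 73 were measured. Between the populations 0 of 73 passed the limma test, and 0 had an unadjusted p under 0.05, against 0.794% of all genes. Averages were higher in GFP-positive cells for 34 genes and lower for 39, against 63.5% of all genes with lower ones. Between tumours 26 of the 73 passed the limma F test, 35.6% against 28.8% of all genes.

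Ligands of the other receptors were mostly dim. Of 10, the stem cell factor gene Kitl, Igf2, Fgf9 and Fgf18 were measured, and Hgf, Igf1, Fgf1, Fgf2, Fgf7 and Fgf10 were not. Between tumours Kitl passed, with means of -0.84, -2.0, -0.33 and -1.08 for 566, 567, 573 and 631 (limma F test adjusted p = 0.0161). Kitl was thus highest in 573, the tumour in which its receptor gene Kit was highest. It no longer passed without either array of 567 or without GFP-positive 573. Fgf18 had a difference between the populations of -0.56 (SE 0.28), with 0.08, -0.46, -0.89 and -0.95 within tumours, and its GFP-positive value of 573 was not above the background criterion. Igf2 and Fgf9 differed by 0.16 (SE 0.87) and -0.04 (SE 0.59), with pairs of both signs and GFP-positive values of 573 that also missed the criterion.

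The TAM partners, which carboxylate the ligands, shed the receptors or join in engulfment, were all measured, 9 of 9. Averages were higher for 1 and lower for 8, against 63.5% of all genes with lower ones. Of them 3 passed between tumours, 33.3% against 28.8% of all genes, a share near the background. Mfge8, a phosphatidylserine bridge that binds integrins, had means of 8.74, 7.98, 9.33 and 7.79 for 566, 567, 573 and 631 (limma F test adjusted p = 0.0101), the same order as Gas6; the call was lost without the GFP-negative array of 567. Socs1, a feedback inhibitor of cytokine signalling that TAM receptors induce, had means of 0.58, 1.03, -0.36 and 1.24 (limma F test adjusted p = 0.0116), the reverse order, shared with Axl; it no longer passed without GFP-positive 573. Socs3 differed between the populations by -0.41 (SE 0.26).

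HGF activators and MET partners gave 9 measured of 10, with a median difference of 0.34. Averages were higher for 7 and lower for 2, against 36.5% of all genes with higher ones. The median difference in tumour 631 was 1.22, and the highest there was 4.55 for St14, the protease matriptase that activates HGF. The St14 mean difference of 1.34 (SE 1.12) was 0.05 without the GFP-negative array of 631. Between tumours 3 of the 9 passed, 33.3% against 28.8% of all genes, a share near the background. Those with the smallest p were the HGF activator inhibitor gene Spint1 and the protease gene Hpn, with ranges of 2.39 and 3.74 (limma F test adjusted p = 0.0295 and 0.0367), both lowest in 631. Their calls were lost without each of 5 arrays in turn, both arrays of 566, both of 567 and the GFP-positive array of 573. Cbl, the ubiquitin ligase that removes active receptors, differed between the populations by 0.34 (SE 0.26).

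FGF receptor signalling genes were all measured, 12 of 12. Averages were higher for 7 and lower for 5, against 36.5% of all genes with higher ones. Between tumours 5 passed, 41.7% against 28.8% of all genes. Spry4 and Spry1 are feedback inhibitors of receptor kinase signalling. Spry4 had means of -4.53, -3.68, -3.53 and -1.25 for 566, 567, 573 and 631 (limma F test adjusted p = 0.00759), highest in 631, and its call was kept without any of the 8 arrays, although its GFP-positive value of 573 missed the background criterion. Spry1 ran the other way, with means of 1.43, 1.41, 2.04 and -0.52 (limma F test adjusted p = 0.0210), lowest in 631, and its call was lost without any array of 566 or 567. Between the populations the adaptor gene Frs2 and the inhibitor gene Spry2 had lower values in GFP-positive cells of all 4 tumours, against 10.8% of all genes. Their mean differences were -0.34 (SE 0.29) and -0.24 (SE 0.22).

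IGF partners and binding proteins gave 10 measured of 11, with a median difference of 0.28. Averages were higher for 8 and lower for 2, against 36.5% of all genes with higher ones. Between tumours 3 passed, 30% against 28.8% of all genes, a share near the background. Igfbp3, which sequesters IGFs, differed by 1.08 (SE 0.56), with 3.18, 0.65, 0.83 and -0.35 within tumours, and by 0.5 to 1.5 when an array was left out. Endothelial markers also differed in the 566 pair. Of 8 such genes 4 were measured (not Pecam1, Cdh5, Kdr and Tek), with a median difference of 3.81 there and summed levels of 5.06 in GFP-positive and 1.66 in GFP-negative cells. Over the 4 tumours those sums were 0.85 to 5.06 and 0.62 to 2.81. Fibroblast markers differed in the 566 pair as well, with a median of 2.22 over 7 genes. The medians there were 0.38 for luminal, 0.19 for basal and -1.29 for pericyte markers. The part of endothelial cells or fibroblasts in the 566 differences of Igfbp3 and Gas6 was not tested. Insr, the insulin receptor gene, differed by 0.32 (SE 0.28), its GFP-positive value of 573 not above the background criterion. Igfbp5, a binding protein of the involuting gland, spanned 3.74 between tumours (limma F test adjusted p = 0.0232), with 1.40 in 631 against 4.16 to 5.14 in the others. Igfbp5 no longer passed without either array of 567 or without GFP-negative 566. Igfbp7 spanned 0.95 (adjusted p = 0.0353 in the limma F test), a call lost without any of the 8 arrays.

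Adaptors shared by the receptors gave 11 of 11 measured, with a median difference of -0.11. Averages were higher for 2 and lower for 9, against 63.5% of all genes with lower ones. Between tumours 3 passed, 27.3% against 28.8% of all genes, a share near the background. Shc1, which links receptors to Ras, had means of 2.20, 3.72, 2.06 and 3.88 (limma F test adjusted p = 0.00909), high in 567 and 631, and the call was kept without any of the 8 arrays. Gab2, a docking protein, spanned 1.5 and was highest in 631 and lowest in 573, as Axl was (limma F test adjusted p = 0.0163). Gab2 no longer passed without either array of 567 or without GFP-positive 573, and its value on the latter array missed the background criterion. Crk and Plcg1 differed between the populations by -0.25 (SE 0.20) and 0.52 (SE 0.44). In tumour 573 they differed by -0.54 and 2.10, but there the GFP-positive values of both were not well above background.

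Of 25 other receptor kinases 18 were measured. Averages were higher for 8 and lower for 10, against 63.5% of all genes with lower ones. Between tumours 8 passed, 44.4% against 28.8% of all genes. Pdgfrb, the receptor of pericytes and fibroblasts, had lower values in GFP-positive cells of all 4 tumours, against 10.8% of all genes. The differences were -1.69, -1.68, -1.72 and -0.51, a mean of -1.40 (SE 0.94, not past the limma test). Its GFP-positive value of 573 was not well above background. It thus passed the filter only through the GFP-negative arrays, where it was higher, so its direction is not independent of the filter. Pdgfrb also passed between tumours, with means of 0.68, 2.51, -0.79 and 2.36 (limma F test adjusted p = 0.00759). The non-canonical Wnt receptor gene Ror1 had means of -0.80, -0.28, 0.59 and -2.35 (limma F test adjusted p = 0.00906), lowest in 631. Both tumour calls were kept without any of the 8 arrays. Csf1r, the macrophage receptor gene, differed between the populations by -0.35 (SE 0.27). Mst1r, the closest relative of Met, was not measured, and neither were the endothelial receptor genes Kdr, Flt4, Tek and Tie1.

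**Figure D5:**
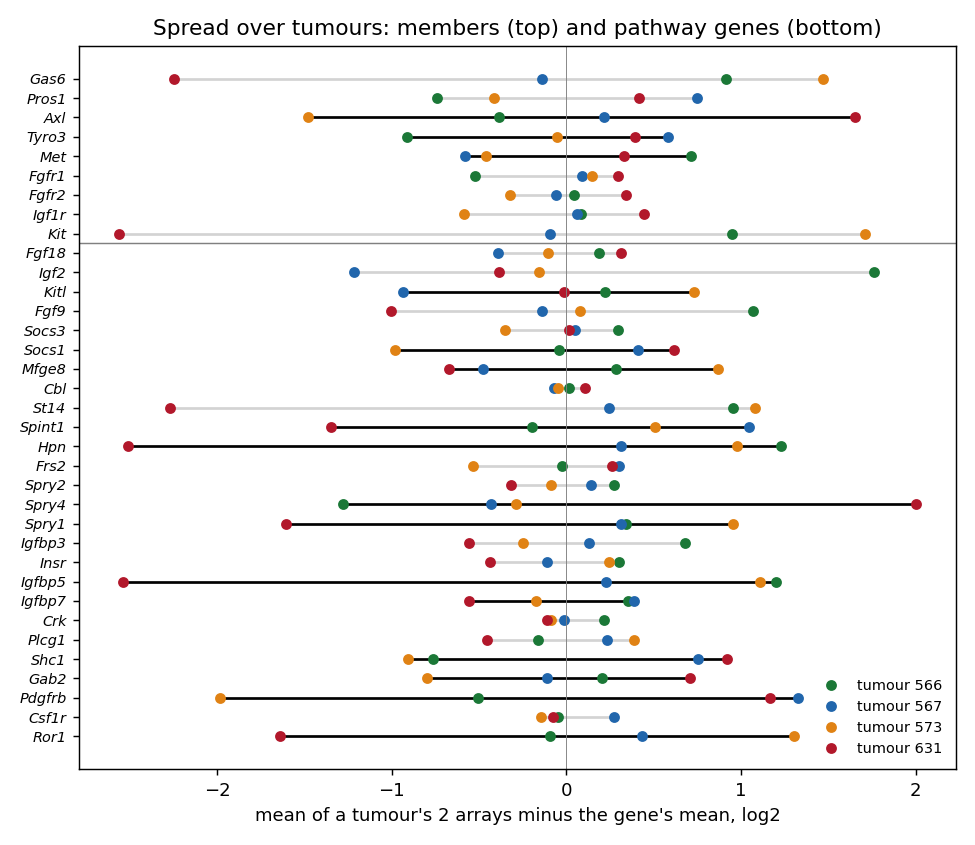
Mean of the 2 arrays of each tumour minus the mean over tumours, on the log2 scale, for the 9 members (above the line) and the named pathway genes (below it), with black lines where the limma F test passed at an adjusted p under 0.05 and grey lines where it did not. Kit, Gas6 and Axl are the widest members, and tumour 631 (red) lies lowest for Gas6, Kit, Hpn, Igfbp5, Spry1 and Ror1 and highest for Axl and Spry4.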

How the data were processed

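RNA of 8 sorted samples was labelled with Cy3 and hybridised to Agilent arrays, 1 array per sample. Per the file headers, the authors deposited linear spot intensity that had been background-subtracted and detrended but not normalized between arrays. The submitters' processing notes name Agilent Feature Extraction 10.7.3.1. The deposited series-wide table of intensity was equal to the scanner files in all 62976 spots. Probes were named through their accessions and a RefSeq table of assembly GRCm38.p6 (32969 of 56555 probes); no coordinates of probes are given.

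Outlier and control spots were left out, spots of a probe averaged, and log2 intensity set relative to the array's 75th percentile over gene spots. Genes well above background on all 4 arrays of a population were kept, by their brightest probe, which left 20265. Of these 13318 had a gene symbol. The other 6947 had none and were kept under the name given on the array, and shares of all genes include them. Populations were compared with limma 3.58.1 (R 4.3.3), without a block, and tumours with its F test beside population; p-values were Benjamini-Hochberg adjusted over all genes, threshold 0.05. The fits were also run on simulated data with independent noise. Those data held no pairing of arrays, so they do not test the fit without a block under the tumour spread seen here. Same-numbered arrays deviated together (correlations 0.573, 0.695, 0.642 and 0.741, against at most 0.221 with another number), so the numbers pair the arrays.

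The members and lists were chosen with earlier results of these data known. Named are all members, up to 2 genes per list and test with the smallest p, and the 3 genes most like each member on all arrays. Where limma is named, adjusted p-values are those. Alternatives were other scalings, filters and background correction (normexp, offset 50, on the median signal, since no mean signal was in the files used here), the block, other probe rules, and each array or tumour left out. The percentile over averaged probes and the block without tumour 631 or 573 were added after seeing the data.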

Additional observations from a re-analysis of the deposited data

How the results depend on the processing

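Between the populations 0 members and 0 genes passed the limma test under all 27 alternatives, including the tumour as a fixed replicate block (0 members and 0 genes; smallest adjusted p over all genes 0.459) and as a random block (0 and 0; smallest adjusted p 0.0532), so the pairing changed no call. With an array or tumour left out, the difference ranged from -0.998 to 0.1537 for Axl and from -0.207 to 1.9068 for Kit, both turning sign without GFP-negative 631, and from -0.4613 to 0.149 for Tyro3, which turned without GFP-positive 566. Between tumours the count of genes moved from 5834 to 2463 with quantile scaling, 1502 with a common floor, 1138 with genes detected on at least 1 array and 0 with no filter, and ranged from 1500 to 5054 with an array or tumour left out. The count of members moved from 3 to 8 with median scaling, 7 with normexp, 7 with genes detected on all arrays, 5 with a percentile over averaged probes, 1 with genes detected on at least 1 array and 0 with no filter, and ranged from 1 to 6 with an array or tumour left out. The cause of these moves was not tested. With no filter the median difference of all genes shifted by 0.244. The raised background of the GFP-positive array of 573 limits dim genes such as Fgfr2, which missed the criterion on that array alone; Mertk missed it on 7 arrays.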
